A study of Mus musculus with 24 samples.

Results

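Creatine kinases, the genes that make and import creatine, and the enzymes that interconvert or remove adenylates were followed through the differentiation of C2C12 cells, a mouse skeletal myoblast line that fuses into myotubes in culture. The group has 10 genes, namely the creatine kinases Ckm, Ckb, Ckmt1 and Ckmt2, the creatine genes Slc6a8, Gatm and Gamt, and the adenylate genes Ampd1, Ampd3 and Ak1. They were chosen by symbol, and every probe set that the array annotation assigns to them was taken, which gave 14 of the 45101 probe sets on the array. The study hybridized 24 Affymetrix arrays, with 3 arrays at each of the 8 times sampled. Day -1 cells were growing myoblasts at 50% confluency and Day 0 cells were myoblasts at 90% confluency. Day 0.25 cells had been in the induction medium for 6 hours, and the cells of Day 1, Day 2, Day 3, Day 4 and Day 5 had been in it for that many days. By the labels the induction medium held 2% serum, while the text of the study gives a different concentration, and all cells came from this 1 line with no other treatment. Nothing in the labels says that the 3 arrays of a time point came from separate cultures, and the p-values therefore describe array-to-array spread that may be technical only.

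Muscle holds a small store of ATP and a larger store of phosphocreatine. Creatine kinase moves the phosphate between them, so that ATP can be remade quickly at the sites where it is spent. The cytosolic enzyme is a dimer whose subunits are of type M, encoded by Ckm, or type B, encoded by Ckb and named for brain. The replacement of B by M is a classical feature of muscle differentiation. Adenylate kinase remakes ATP from ADP and leaves AMP, which AMP deaminase converts to IMP, the first step of the purine nucleotide cycle.

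The values are intensities that were normalized with GC-RMA and returned to a linear scale. A level is given as mean ± SD (n = 3 arrays), a number after ID is the identifier of the gene in Entrez Gene, and changes are log2 differences of the later minus the earlier time point with their SE. A probe set was tested if its level was at least 100 at 1 or more time points, and 7 of the 10 genes had such a probe set. Ckmt1, Ckmt2 and Ampd1 had none. The change from Day 1 to Day 2 was fitted with limma on its 6 arrays and the other changes in a single limma fit of 24 arrays, with p-values adjusted over all probe sets tested (Benjamini-Hochberg) and a threshold of 0.05. Neighbouring comparisons share the arrays of the time point between them. In bulk RNA, fewer cells of a type and less RNA per cell cannot be told apart.

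Between arrays of 1 time point r lay within 0.962 and 0.996, and no arrays were identical. All 8 skeletal muscle markers (Myod1, Myf5, Myog, Des, Acta1, Myh3, Tnnt3 and Chrna1) reached a level of 100, and their summed level was 8719 on Day -1, 47156 on Day 2 and 52428 on Day 5. Of the markers of cardiac muscle, adipocytes, white blood cells and endothelium, none reached 100, and of 4 smooth muscle markers only Smtn did. The summed level of the proliferation markers Mki67 and Top2a was 3671 on Day -1, 1524 on Day 0, 3060 after 6 hours and 2178 on Day 1, and then 976 on Day 2 and 147.6 on Day 5.

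The promoter sequences of the M-type, B-type and sarcomeric mitochondrial creatine kinase genes are shown as examples of a rise, a fall and a constant background signal. RefSeq windows on GRCm38.p6 were found for 8 of the 10 genes, 14 windows in all. Each line gives the 250 bases before an annotated start site, 5′ to 3′ on the strand of the gene. Capitals mark matches, on either strand, to the E-box CANNTG that myogenic bHLH factors bind, to the MEF2 consensus, or to the M-CAT element CATTCC. The CArG box consensus of serum response factor was searched but not set in capitals, and the windows shown held no match to it. The Ckm window lies at chr7:19410844-19411093 on the plus strand, the Ckb window at chr12:111672339-111672588 on the minus strand, and the Ckmt2 window at chr13:91876886-91877135 on the minus strand.
Ckm: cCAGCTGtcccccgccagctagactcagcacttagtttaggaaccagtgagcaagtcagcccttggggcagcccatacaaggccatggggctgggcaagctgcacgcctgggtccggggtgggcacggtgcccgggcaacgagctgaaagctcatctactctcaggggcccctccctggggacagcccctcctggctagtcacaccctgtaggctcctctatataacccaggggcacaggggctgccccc
Ckb: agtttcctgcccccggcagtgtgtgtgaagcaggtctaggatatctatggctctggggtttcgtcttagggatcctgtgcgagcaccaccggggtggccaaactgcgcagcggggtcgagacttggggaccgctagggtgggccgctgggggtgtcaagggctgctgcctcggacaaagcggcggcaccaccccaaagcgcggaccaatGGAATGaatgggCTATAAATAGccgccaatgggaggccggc
Ckmt2: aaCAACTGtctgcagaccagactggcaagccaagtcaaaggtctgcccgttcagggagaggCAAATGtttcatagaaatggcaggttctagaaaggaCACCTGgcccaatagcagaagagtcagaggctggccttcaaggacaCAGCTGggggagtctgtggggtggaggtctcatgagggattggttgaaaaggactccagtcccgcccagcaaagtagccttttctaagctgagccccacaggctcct

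In the Ckm window the only match was an E-box at position -249 from the start site. The Ckb window held no E-box, but it held a match to the MEF2 consensus at -29 and, without overlap, to the M-CAT element on the other strand at -41. The Ckmt2 window held 4 E-boxes. These matches describe the letters of the windows and show no binding. Of 32851 mouse windows of the same length, 66.2% held an E-box, 2.92% the MEF2 consensus, 1.47% the CArG consensus and 12.6% the M-CAT element. An E-box was found in 9 of the 14 windows of the group.

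Ckm (ID 12715), the muscle-type subunit, was at background in growing myoblasts and high in myotubes. On Day -1 its probe set 1417614_at read 4.10, 3.74 and 7.02, close to the array medians of 3.64 to 3.88. On Day 0, before the serum was reduced, it read 154, 173 and 111. After 6 hours it read 88.0, 81.1 and 107. The Day 0 arrays thus stood far above all Day -1 arrays, and the 6 hour arrays lay just below those of Day 0 with no overlap. On Day 1 the arrays read 434, 489 and 674, and on Day 2 they read 1116, 1446 and 1053. On Day 3 they read 872, 1029 and 1254. These were the highest levels of the course. On Day 4 the arrays read 940, 663 and 1067, and on Day 5 they read 626, 432 and 623. In order of level, Day -1 (4.95 ± 1.80), Day 0.25 (92.0 ± 13.3) and Day 0 (146 ± 31.7) were separated from each other and from all later days. Day 1 (532 ± 126) and Day 5 (560 ± 111) overlapped, and so did Day 4 (890 ± 207), Day 3 (1051 ± 192) and Day 2 (1205 ± 211). Day 1 and Day 4 overlapped as well, by the Day 1 array of 674 and the Day 4 array of 663.

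By limma, Ckm rose by a log2 change of 4.92 ± 0.25 from Day -1 to Day 0 (adjusted p = 6.71e-12). Since the Day -1 signal was at background, the size of that change depends on how background is treated, and with every intensity below 50 raised to 50 it was 2.87-fold (adjusted p = 7.24e-06). Over the next 6 hours Ckm fell by 0.65 ± 0.25 (adjusted p = 0.0399), and this call was lost without either of Day 0 replicates 1 and 2 or Day 0.25 replicates 1 and 2 (adjusted p between 0.1 and 0.152) and with no level filter (0.121). From 6 hours to Day 1 it rose 5.72-fold (2.52 ± 0.25 on the log2 scale, adjusted p = 5.11e-07), and from Day 1 to Day 2 it rose 2.28-fold (1.19 ± 0.19, adjusted p = 0.00364). Ckm then came down slowly. The changes over the 3 intervals after Day 2 were -0.20 ± 0.25, -0.25 ± 0.25 and -0.66 ± 0.25 and did not pass (adjusted p = 0.739, 0.588 and 0.150). Across the 3 intervals together, from Day 2 to Day 5, Ckm was 2.16-fold lower (log2 -1.11 ± 0.25, adjusted p = 0.00163). A further Ckm probe set, 1444643_at, read between 3.22 and 3.65 on all 24 arrays.

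Ckb (ID 12709), the brain-type subunit, was present in myoblasts, reached its highest levels on Day 0.25 and Day 1, and was low from Day 3 on. Its probe set 1455106_a_at read 331, 290 and 332 on Day -1. On Day 0 it read 200, 214 and 239, and on Day 0.25 it read 376, 448 and 416. The 3 time points did not overlap, so Ckb went down and then up while Ckm went up and then down. On Day 1 the Ckb arrays read 407, 454 and 378, which overlapped with Day 0.25. On Day 2 they read 108, 144 and 97.6, and on Day 3 they read 62.1, 56.8 and 51.8. All Day 2 arrays were below all earlier ones. On Day 4 they read 48.0, 34.4 and 44.8, and on Day 5 they read 40.3, 44.8 and 46.2. In order of level, Day 4 (42.4 ± 7.09) and Day 5 (43.8 ± 3.10) overlapped, and above them Day 3 (56.9 ± 5.18), Day 2 (117 ± 24.4), Day 0 (218 ± 19.5) and Day -1 (318 ± 24) were each separate. Day 1 (413 ± 38.6) and Day 0.25 (413 ± 36.4) overlapped at the top.

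By limma, Ckb fell by 0.55 ± 0.14 on the log2 scale from Day -1 to Day 0 (adjusted p = 0.00358) and rose 1.90-fold over the next 6 hours (0.93 ± 0.14, adjusted p = 3.52e-05). From Day 0.25 to Day 1 the difference was -0.00 ± 0.14 (95% interval -0.29 to 0.29). From Day 1 to Day 2, the interval in which Ckm was rising, Ckb became 3.58-fold lower (log2 -1.84 ± 0.16, adjusted p = 0.000642). It became a further 2.03-fold lower from Day 2 to Day 3 (-1.02 ± 0.14, adjusted p = 0.000360). The values for the last 2 intervals were -0.43 ± 0.14 (adjusted p = 0.129) and 0.06 ± 0.14 (adjusted p = 0.865). Day 5 was 7.26-fold below Day -1 (adjusted p = 5.86e-13). The summed level of Mki67 and Top2a was likewise lower on Day 0 than on Day -1, higher after 6 hours and lower again on Day 2. From Day 0.25 to Day 1, however, that sum went from 3060 to 2178, while the Ckb difference was -0.00 ± 0.14. The sum was highest on Day -1, and Ckb was highest on Day 0.25 and Day 1. The part of proliferating cells in the Ckb signal was not tested.

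Because Ckb is abundant in brain, markers of neurons and glia were read beside it. Of 8 markers, Gfap, Snap25, Syp, Syt1, Rbfox3, Mbp and Olig2 stayed below 100 at every time point. Nefl alone reached that level, and it fell from 4989 on Day -1 to 82.7 on Day 5. The summed level of the 8 was mostly Nefl at every time point and so follows that gene. It was 5013 in growing myoblasts, lay between 1053 and 1289 until Day 1, and was 248 at Day 2 and 107 at Day 5. The part of Nefl-expressing cells in the Ckb signal was not tested.

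**Figure D1:**
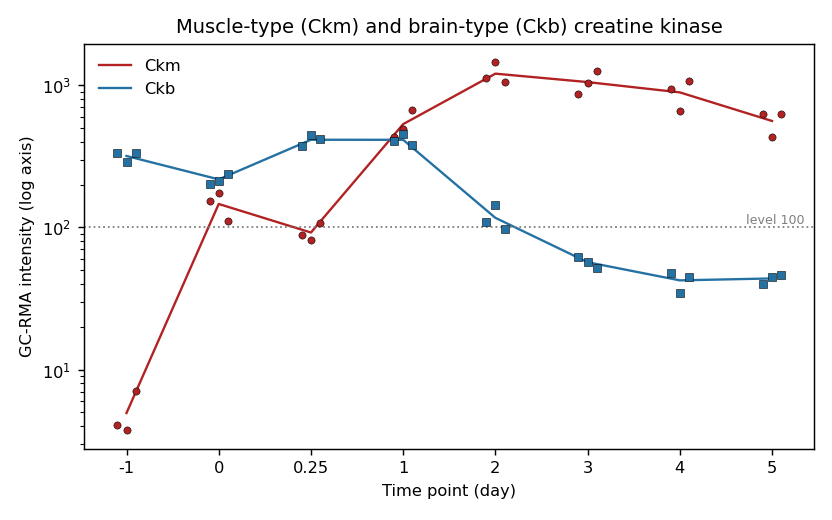
GC-RMA intensity (log axis) of Ckm (red circles) and Ckb (blue squares) by time point, with 1 point for each of 3 arrays, lines through the means and a dotted line at the level of 100. Ckm went from 4.95 on Day -1 to 1205 on Day 2, Ckb from 413 on Day 1 to 42.4 on Day 4; the heights of different probe sets cannot be set against each other.

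The exchange of B-type for M-type transcript was measured as the log2 ratio of the Ckm to the Ckb probe set within each array. Probe sets differ in their response, so only changes of the ratio have a meaning and not its sign. The ratio averaged -6.06 ± 0.43 on Day -1 and -0.59 ± 0.44 on Day 0. At 6 hours it stood at -2.17 ± 0.26, below all Day 0 arrays, and on Day 1 at 0.34 ± 0.43. On Day 2 it had reached 3.37 ± 0.05, and on Day 3 and Day 4 it was 4.20 ± 0.39 and 4.38 ± 0.17. The Day 5 ratio was 3.66 ± 0.35. Among the 9 arrays of Day 3, Day 4 and Day 5 the ratio ran from 3.27 to 4.60, and among the 6 myoblast arrays of Day -1 and Day 0 from -6.34 to -0.30, with no overlap. The difference of the means was 7.41, with a two-sided exact permutation p = 0.0004, the smallest that 5005 splits of these arrays can give, and adjusted p = 0.0012 over the 3 isozyme pairs compared. The permutation shuffled single arrays without regard to their time points, so its p is no measure of replicated conditions. The myoblast ratios were themselves far apart. Against Day 0 alone the difference was 4.67 (exact permutation p = 0.0273, adjusted over the 3 pairs), against Day -1 alone it was 10.1 (0.0136), and with intensities below 50 raised to 50 it was 5.56. With the further Ckm probe set, which was at background, the difference was 2.50 and rested on Ckb alone.

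**Figure D2:**
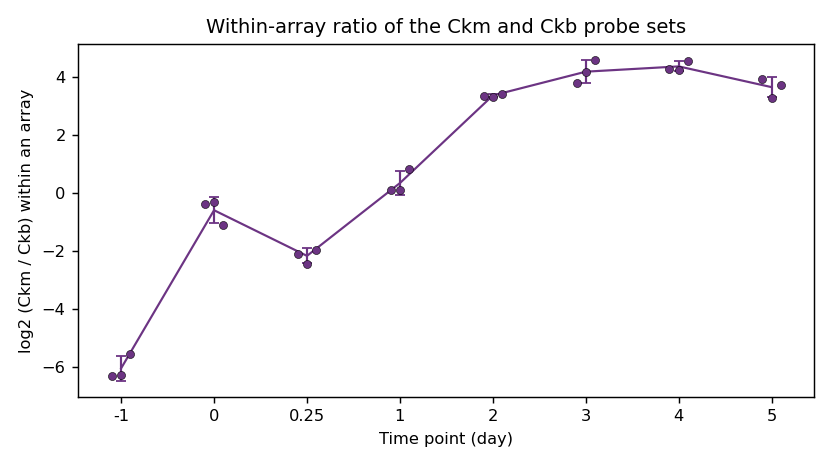
Log2 ratio of the Ckm to the Ckb intensity within each array by time point; points are the 3 arrays, the line joins the means and bars are SD. The ratio moved from -6.06 on Day -1 to -0.59 on Day 0, was lower again at -2.17 after 6 hours, and stood between 3.27 and 4.60 on all arrays from Day 3 on.

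The mitochondrial creatine kinases charge creatine at the site of ATP production. Neither was detected above background. For the ubiquitous form Ckmt1 (ID 12716), probe set 1417089_a_at read between 3.15 and 3.45 and 1432418_a_at between 2.27 and 2.37 over all 24 arrays. For the sarcomeric form Ckmt2 (ID 76722), 1428722_at read between 2.73 and 2.87. These values lie below the array medians, so no level could be given for either transcript. The within-array log2 ratio of Ckmt2 to Ckmt1 differed by 0.0034 between late and myoblast arrays (exact permutation p = 0.643), a comparison of 2 background signals.

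Slc6a8 (ID 102857), the transporter that brings creatine into the cell, was measured by 2 probe sets that moved in opposite directions from Day -1 to Day 5. The probe set with the higher mean, 1417116_at, read 355, 352 and 332 on Day -1. It read 278, 299 and 298 on Day 1, the lowest level of its course, and 392, 433 and 357 on Day 2. On Day 5 it read 487, 530 and 472. All Day 5 arrays were above all Day -1, Day 1 and Day 2 arrays. The level was 346 ± 12.2 on Day -1 and 497 ± 30.1 on Day 5, 1.43-fold higher (log2 0.52 ± 0.11, adjusted p = 0.000296 by limma). From Day 1 to Day 2 it rose by 0.43 ± 0.11 (adjusted p = 0.0206), a call lost without either of replicates 1 and 2 of Day 1 or without replicate 1 of Day 2 (adjusted p = 0.0967, 0.0717 and 0.0672). From Day 2 to Day 5 it rose by 0.34 ± 0.11 (adjusted p = 0.0215), a call lost when these 6 arrays were fitted alone (0.128) or without replicate 1 or 3 of Day 2 or replicate 2 of Day 5 (0.0515, 0.109 and 0.0810).

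The other Slc6a8 probe set, 1448596_at, was highest in growing myoblasts, where it read 220, 237 and 243. On Day 0 it read 184, 167 and 175, and on Day 5 it read 157, 187 and 160. The Day -1 arrays stood above those of both. It fell by 0.41 on the log2 scale from Day -1 to Day 0 (adjusted p = 0.00594) and was lower by 0.48 on Day 5 (adjusted p = 0.000878). Its changes from Day 1 to Day 2 (-0.07, adjusted p = 0.582) and from Day 2 to Day 5 (0.17, adjusted p = 0.265) did not pass. The log2 ratio of the first to the second probe set averaged 0.57 on Day -1 and 1.14 on Day 0, then 0.90 (Day 1), 1.40 (Day 2) and 1.57 (Day 5). The 6 myoblast arrays reached 1.31 at most, and the 9 arrays of Day 3, Day 4 and Day 5 were at 1.33 or above, a difference of the means of 0.74 (two-sided exact permutation p = 0.0004, again the smallest possible). Here too single arrays were shuffled without regard to their time points. This ratio was chosen after the values of both probe sets were seen, and which of them follows the Slc6a8 transcript was not tested.

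Gatm and Gamt encode the pair of enzymes that make creatine, Gatm forming guanidinoacetate from arginine and glycine and Gamt adding the methyl group. Both were lowest on Day 5. Gatm (ID 67092, probe set 1423569_at) read 1194, 1253 and 1251 on Day -1 and 1569, 1273 and 1655 on Day 2. On Day 4 it read 769, 1108 and 1136, and on Day 5 it read 773, 709 and 787. Its levels from Day -1 to Day 3 overlapped between neighbours in order and lay between 1225 ± 143 and 1499 ± 200, and no single interval passed the test. The fall appeared only across several days, with Day 5 1.97-fold below Day 2 (log2 -0.98 ± 0.15, adjusted p = 3.09e-05) and 1.63-fold below Day -1 (-0.71 ± 0.15, adjusted p = 0.000236).

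Gamt (ID 14431, probe set 1422558_at) rose before induction and fell after Day 1. It read 141, 90.5 and 126 on Day -1 and 245, 258 and 254 on Day 0. On Day 1 it read 324, 335 and 272, the highest level of its course, and on Day 2 it read 173, 287 and 172. Replicate 2 of Day 2 thus overlapped with Day 1, and the other 2 arrays did not. On Day 3 it read 143, 141 and 112. On Day 4 it read 92.7, 94.9 and 92.2, and the Day 5 arrays were 46.2, 55.8 and 92.5. The rise from Day -1 to Day 0 was 2.15-fold (log2 1.11 ± 0.22, adjusted p = 0.000536). From Day 1 to Day 2 the change was -0.60 ± 0.21 and did not pass (adjusted p = 0.0595). Gamt was called lower over this interval in the single fit of 24 arrays, with the replicate block and without Day 2 replicate 2. Day 5 was 3.30-fold below Day 2 (-1.72 ± 0.22, adjusted p = 7.63e-06). Against Day -1 it was 1.89-fold lower (-0.92 ± 0.22, adjusted p = 0.00118), with 1 Day 5 array above the lowest Day -1 array.

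Ampd1 encodes the AMP deaminase of mature skeletal muscle, and Ampd3 the form first described in erythrocytes. The Ampd1 probe set 1434722_at (ID 229665) read between 1.51 and 1.56 on every array, which is background, and no level could be given. Ampd3 (ID 11717, probe set 1422573_at) was measured throughout. It read 307, 401 and 335 on Day -1, 503, 453 and 421 on Day 0, and 308, 238 and 320 on Day 0.25. On Day 1 it read 413, 377 and 567, and on Day 2 it read 666, 485 and 653. On Day 5 it read 511, 650 and 409. Only the Day 0.25 arrays were low after Day -1, and from Day 1 on the time points overlapped. By limma, Ampd3 fell by 0.68 ± 0.19 over the first 6 hours (adjusted p = 0.00867) and rose by 0.64 ± 0.19 by Day 1 (adjusted p = 0.0202). The second call was lost without Day 0.25 replicate 2 or Day 1 replicate 3 (0.0736 and 0.118) and with no level filter (0.0627). Day 5 was 1.49-fold above Day -1 (log2 0.58 ± 0.19, adjusted p = 0.0124), a call lost without Day -1 replicate 1 or Day 5 replicate 2 (0.0548 and 0.0859). The within-array log2 ratio of Ampd1 to Ampd3 was lower by -0.32 in late arrays (exact permutation p = 0.0384, adjusted over the 3 pairs p = 0.0575). The Ampd1 signal was at background, so this ratio moved with Ampd3 alone and says nothing of an isozyme exchange.

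Ak1 (ID 11636), the cytosolic adenylate kinase of muscle, was present in growing myoblasts and rose at confluence. Its probe set 1422184_a_at read 522, 515 and 562 on Day -1 and 833, 820 and 856 on Day 0. On Day 0.25 it read 692, 794 and 685, and on Day 3, the day of its highest level, 963, 903 and 902. On Day 5 it read 745, 817 and 787. The Day -1 arrays were below all others of the course. The rise from Day -1 to Day 0 was 1.57-fold (log2 0.65 ± 0.08, adjusted p = 2.67e-06), and Day 5 was 1.47-fold above Day -1 (0.55 ± 0.08, adjusted p = 4.13e-06). The fall of 0.21 ± 0.08 over the first 6 hours (adjusted p = 0.0399) was lost with quantile normalization (0.0529), with these 6 arrays fitted alone (0.110) and without any of 5 of the 6 arrays (Day 0 replicates 1, 2 and 3, Day 0.25 replicates 1 and 3, up to 0.151). A further probe set, 1423988_at, read between 3.73 and 4.21.

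**Figure D3:**
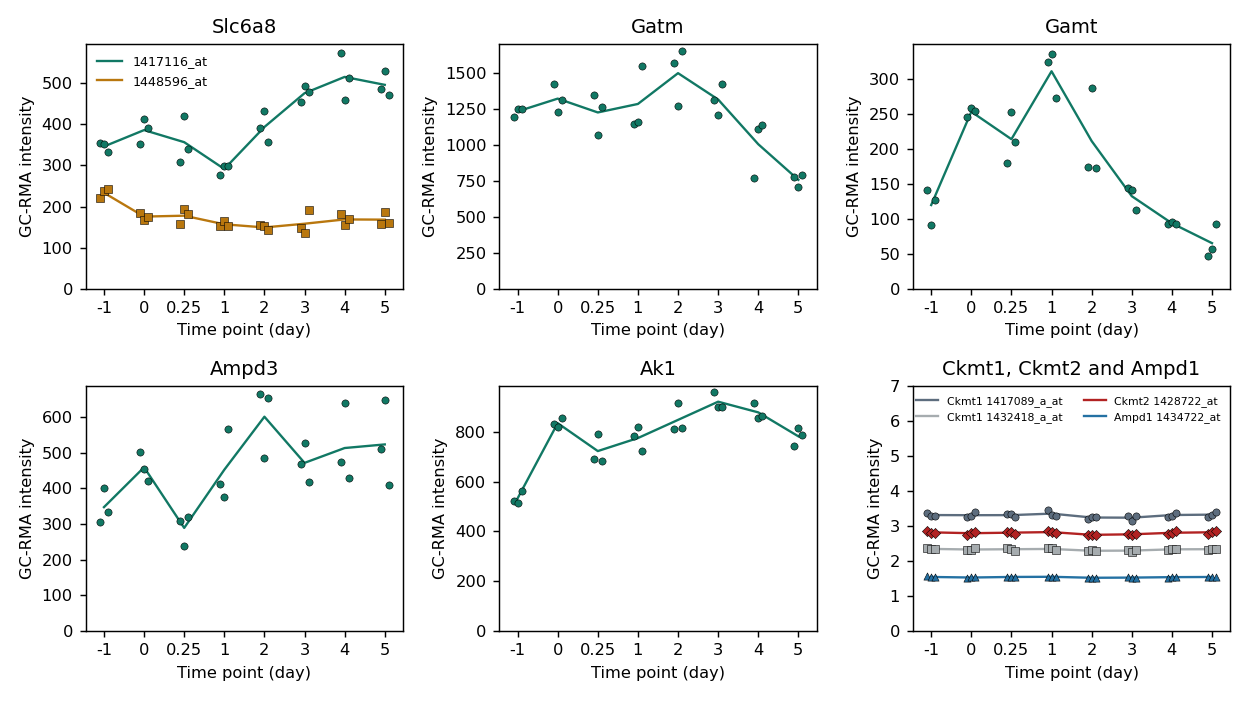
GC-RMA intensity (linear axes from 0) by time point of Slc6a8 (2 probe sets), Gatm, Gamt, Ampd3, Ak1 and, in the last panel, the background signals of Ckmt1, Ckmt2 and Ampd1; points are the 3 arrays and lines join the means. Gatm and Gamt ended lowest on Day 5, Ak1 rose from 533 on Day -1 to 836 on Day 0, the Slc6a8 probe sets diverged, and no array of the last panel exceeded 3.45.

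Read across the group, the first changes came between the growing and the confluent myoblasts, before the serum was reduced. From Day -1 to Day 0, 3 of the 7 genes tested rose (Ckm, Gamt and Ak1) and 1 fell (Ckb), against 23.3% of all 13766 probe sets called higher and 21.7% lower. In the first 6 hours of induction, Ckm, Ampd3 and Ak1 fell and Ckb rose, against 20.9% called lower and 22.4% higher. Ckm and Ampd3 rose and none fell from Day 0.25 to Day 1, against 11.6% called higher and 15.4% lower. From Day 1 to Day 2, Ckm rose, Slc6a8 rose by its first probe set and Ckb fell. The background was 19% of 12649 probe sets called higher and 17.3% lower. The counts of the group rest on 7 genes, and whether their shares differ from those of all probe sets was not tested. Leaving out some single arrays lost the Ckm and Ak1 calls of the first 6 hours. The same held for the Ampd3 rise to Day 1 and the Slc6a8 rise to Day 2.

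From Day 2 to Day 3 the 1 call was Ckb, lower, where 2.95% of all probe sets were called lower and 3.23% higher. No gene of the group passed by limma from Day 3 to Day 4 (1.13% of all probe sets called) or from Day 4 to Day 5 (3.49%), the lowest adjusted p being 0.129 and 0.149, while 3 and 4 genes had an unadjusted p under 0.05. Over the whole of maturation from Day 2 to Day 5, 4 genes fell (Ckm, Ckb, Gatm and Gamt) and Slc6a8 rose by its first probe set, against 21% called lower and 13.8% higher. The median log2 change of the 7 genes was -0.98, and that of all probe sets tested -0.04. From Day -1 to Day 5 all 7 genes tested passed, 4 higher (Ckm, Slc6a8 by its first probe set, Ampd3 and Ak1) and 3 lower (Ckb, Gatm and Gamt), where 31.9% of all probe sets were called higher and 38.3% lower. Ckm, Ckb and Gamt were below a level of 100 at some time points and were tested because of those at which they were high, so these counts are a description. Over the 8 time points together the 7 genes passed the F test of limma (adjusted p between 2.65e-15 for Ckm and 0.00110 for Ampd3), as did 88.8% of all probe sets.

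**Figure D4:**
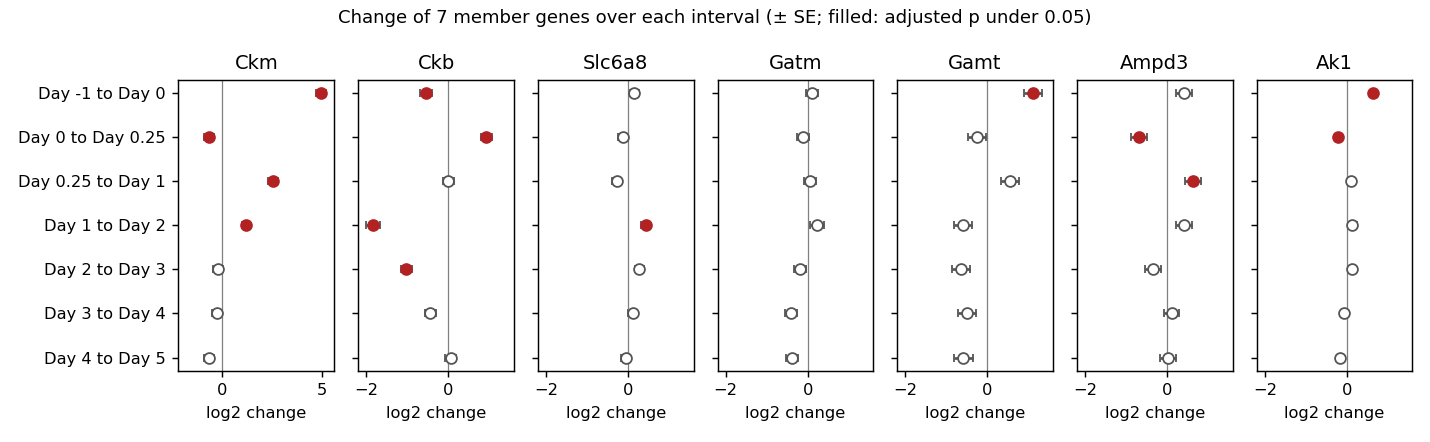
Log2 change of the 7 genes tested over each of the 7 intervals between neighbouring time points, with SE bars; filled red points had an adjusted p under 0.05, and the axis of Ckm is longer than that of the other genes. Calls lie mostly in the first 4 intervals, and none was made after Day 3.

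Among the 7 genes, the log2 intensities of Ckm and Ak1 had a Pearson r of 0.89 over the 24 arrays, those of Ckb and the first Slc6a8 probe set -0.86, of Ckb and Gamt 0.73, and of Ckm and Ckb -0.60. These values, and those of the search below, describe arrays that share 8 time points and take no account of the size of a change. In a search of 7906 genes over the same arrays, the genes most like Ckm were Srpk3 (r = 0.99), Rab40b (0.98) and Stac3 (0.98), and those most like Ckb were Anxa5 (0.98), Acat1 (0.98) and Apobec3 (0.97). For Slc6a8, by its first probe set alone, they were Hspb8 (0.90), Tmem115 (0.89) and Morn4 (0.88), for Gatm Pof1b (0.90), Cdh15 (0.88) and Clcn5 (0.87), and for Gamt Ddah2 (0.94), Psme1 (0.94) and Pdlim4 (0.92). For Ampd3 they were Tnfaip2 (0.91), Sft2d2 (0.90) and Zbtb4 (0.87), and for Ak1 Sgca (0.94), Tspan17 (0.94) and Arhgdib (0.93).

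Other genes of adenylate metabolism were read from 6 lists between Day -1 and Day 5, for which the background is 31.9% higher, 38.3% lower and a median of -0.08. In the purine nucleotide cycle, 4 of 4 genes were tested, 1 rose and 1 fell, with a median of -0.17. These 2 were the isozymes of adenylosuccinate synthase, which turns IMP back towards AMP. Adssl1, the muscle isozyme, went from 115 ± 5.58 to 631 ± 24.2 (log2 2.46 ± 0.11, adjusted p = 1.33e-13), and Adss, the form of other tissues, from 2172 ± 36.7 to 705 ± 109 (-1.63 ± 0.12, adjusted p = 4.12e-10). From Day 1 to Day 2 the same 2 genes moved the same ways, by 1.03 ± 0.14 (adjusted p = 0.00206) and -0.47 ± 0.12 (0.0183). Adsl, the next enzyme of the cycle, named here after its values were seen, also fell between these days (-0.35 ± 0.10, adjusted p = 0.0300). Among the other adenylate kinases 1 of 8 was tested, the mitochondrial Ak3, which gave 689 ± 73.3 and 755 ± 88.3 and did not pass (adjusted p = 0.261).

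The subunits of AMP-activated protein kinase, which senses AMP, changed in both directions, with 2 higher and 3 lower of 6 tested and a median of -0.22. The gamma subunit Prkag3, known from skeletal muscle, went from a background value of 3.70 ± 0.293 to 361 ± 59.1 (adjusted p = 2.64e-13), with no fold given against background, and the beta subunit Prkab2 from 87.9 ± 9.35 to 283 ± 48.1 (1.68 ± 0.15, adjusted p = 4.20e-09). Prkag2 went from 109 ± 0.960 to 27.8 ± 6.35 (-1.99 ± 0.16, adjusted p = 7.68e-10), and Prkab1 from 295 ± 3.98 to 187 ± 5.83 (-0.66 ± 0.08, adjusted p = 3.62e-07). Prkag3, Prkab2, Prkag2 and the diphosphate kinase Nme7 were under a level of 100 on one of these days and were tested because of time points at which they were high, so the counts and medians of their lists are a description.

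Of the genes of AMP, adenosine and purine salvage, 5 of 6 tested fell and none rose, with a median of -0.61. They included the purine salvage enzyme Aprt (-1.18 ± 0.23, adjusted p = 0.000116) and the pyrimidine nucleotidase Nt5c3 (-0.70 ± 0.13, adjusted p = 7.05e-05). The nucleoside diphosphate kinases, which pass phosphate from ATP to other nucleotides, fell in 3 of 3 tested, with a median of -2.04. Nme1 went from 4553 ± 974 to 1098 ± 276 (-2.06 ± 0.21, adjusted p = 2.73e-08) and Nme7 from 362 ± 35.4 to 88.5 ± 10.6 (-2.04 ± 0.13, adjusted p = 2.69e-11). In mitochondrial adenine nucleotide exchange 1 of 6 rose and 4 fell, with a median of -0.27. The ADP/ATP carriers Slc25a5 (-0.81 ± 0.09, adjusted p = 1.49e-07) and Slc25a4 (-0.38 ± 0.07, adjusted p = 9.70e-05) fell, and the outer membrane channel Vdac3 rose (0.32 ± 0.09, adjusted p = 0.00492). The proliferation markers Mki67 and Top2a fell over the same days, and their part in these falls was not tested.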

How the data were processed

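Total RNA of C2C12 cells was hybridized to 24 Affymetrix mouse arrays, and groups were taken from the sample labels. The deposited values are intensities, which the authors computed with GC-RMA, returned from the log2 to the linear scale and multiplied so that the trimmed mean (2%) of an array was 150; MAS5 is also named in the submitters' processing notes, with no role. Probe sets were named by the array annotation, and 34958 of 45101 have 1 gene symbol; of several probe sets the one of highest mean stood for the gene. Tests were run with limma 3.58.1 in R 4.3.3 on log2 intensities, with a level minimum of 100, and were checked on simulated data, and ratios were compared with exact permutation tests in Python 3.11.15 (scipy 1.17.1). The members and lists were chosen with earlier results of these data known. Named genes were all members, the 2 genes of lowest adjusted p in each direction of a list, and the 3 genes most like each member. Outside this rule, Adsl, Ak4, Ak5, Ada and Prkaa2 were named after their values were seen. Same-numbered arrays deviated together in every pair only from Day 3 to Day 4 (r = 0.399, 0.344 and 0.190), where a replicate block changed no call. Alternatives were no level filter, a level of at least 200, quantile normalization, values below 50 raised to 50, an intensity trend in the prior, the probe set of largest absolute moderated t (for ratios, the second highest mean), the 6 arrays alone or all 24, a ratio against Day 0 or Day -1 alone, the replicate block and leaving out each array. The number of arrays limits the precision.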

Additional observations from a re-analysis of the deposited data

How the results depend on the processing

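Of 26 called changes of single genes, 20 kept their call under every alternative listed in the methods. Of 364 alternative values 340 kept the call, 24 lost it and none changed direction. For each of the 26, the highest absolute moderated t chose the main probe set again. This alternative therefore repeated the main value, could not lose a call, and is counted within the 340. The other Slc6a8 probe set, given below, is outside the 364, and with it some Slc6a8 changes turned direction. On leaving out single arrays the count of genes changed ran from 2 to 3 in the first 6 hours, from 1 to 3 between Day 0.25 and Day 1, from 2 to 5 between Day 1 and Day 2, and from 0 to 1 in the last interval. Without Day 2 replicate 2 there were 5 calls from Day 1 to Day 2; the 1 call after Day 4 was Gatm without Day 4 replicate 1 and Gamt without Day 5 replicate 3. With the probe set of the highest absolute moderated t, 5 genes were called from Day -1 to Day 0, Slc6a8 being the one added, as lower. With no level filter, 1 gene was called from Day 0.25 to Day 1. With the replicate block, 5 genes were called from Day 1 to Day 2, but same-numbered arrays of these days share only a number (r = -0.361, 0.551 and 0.306). With intensities below 50 raised to 50 the ratio of Ampd1 to Ampd3 passed with a nearly unchanged difference (-0.32). The ratio of Ckmt2 to Ckmt1 was then constant and was left out of the adjustment. The Ampd1 to Ampd3 ratio also passed with quantile normalization (-0.35) and against Day -1 alone (-0.53), but was -0.11 against Day 0 alone (adjusted p = 0.509). On leaving out single arrays it ran from -0.39 to -0.24, and it passed without replicate 1 or 2 of Day 0 or replicate 3 of Day 3, Day 4 or Day 5 (adjusted p between 0.0195 and 0.0495). That of Ckmt2 to Ckmt1 changed sign against Day -1 alone (-0.0021) and ran from -0.00045 to 0.0054. The other Slc6a8 probe set, an alternative chosen after seeing the data, gave -0.48 between Day -1 and Day 5, -0.072 between Day 1 and Day 2, and 0.17 between Day 2 and Day 5. The cause of these shifts was not tested. A second probe set was not run for Ampd1 and Ampd3, and the floor of 50 left no value for Ckmt1 and Ckmt2. Changes of transcripts near the array medians could not be measured.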

Other observations

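Some genes of the adenylate lists stayed below a level of 100 at all time points and entered no test. The mitochondrial adenylate kinase Ak4 stood at 49.0 ± 11.1 in growing myoblasts (Day -1, SD, n = 3) and at 5.84 ± 1.04 in Day 5 myotubes, and Ak5 at 1.90 ± 0.106 and 9.07 ± 3.77. Ada, the adenosine deaminase, stood at 98.7 ± 6.53 and 3.84 ± 1.00, just under the level required. Prkaa2, the catalytic alpha subunit of AMP-activated protein kinase that muscle expresses, stood at 2.74 ± 0.227 and 33.4 ± 9.29. These 4 genes were named after their values were seen, and for each the lower level lay close to background. Ak7, Ak8 and Slc25a31 stayed at background on both days. Whether any of these genes changed was not tested.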
